A study of Mus musculus with 31 samples.

Results

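The liver of SM/J mice was examined for its response to PF-04287881, an experimental antibiotic. Members were chosen by label: the 4 SM/J animals that received the drug and the 4 SM/J animals that received vehicle, 8 of the 31 arrays of the series. All were females of 8 to 10 weeks at the start. Treated animals were dosed by oral gavage with 600 mg/kg once a day for 7 days and vehicle animals with sterile water on the same schedule, and the left liver lobe was taken 24 hours after the last dose. MA/MyJ, NZW/LacJ and WSB/EiJ mice of the same sex and age were treated in the same way, with 4 animals per group except 3 treated WSB/EiJ animals. The series codes SM/J as a strain with neither Kupffer cell vacuolation nor single cell necrosis after the drug, whereas MA/MyJ and NZW/LacJ are coded for vacuolation, NZW/LacJ also for necrosis, and WSB/EiJ for neither. The comparison in SM/J therefore describes what the drug does to liver transcripts in a strain without these microscopic findings.

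Vacuolation of Kupffer cells, the resident macrophages that line the liver sinusoids, is a usual sign of phospholipidosis, in which undegraded phospholipid builds up in lysosomes. Lysosomes degrade lipids, glycans and proteins with acid hydrolases, their membrane proton pump keeps them acid, and the transcription factors TFEB and TFE3 raise the expression of lysosomal genes through an E-box variant known as the CLEAR element. Proteins tagged with ubiquitin are degraded outside lysosomes by the proteasome, a barrel-shaped core particle capped by regulatory particles that unfold the substrate.

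All 8 arrays carried the probe-set pattern of their strain. Scored over probe sets private to 1 strain, with SM/J near 1 and other strains near 0, they lay between 0.911 and 0.992, against -0.0493 to 0.117 for the other 23 arrays. Of the 23 listed hepatocyte markers, 20 could be tested and none was dim. One array of the other groups was in doubt, that labelled WSB/EiJ treated animal 3, which lay at 1.02 on the scale of NZW/LacJ and at 0.00911 on that of WSB/EiJ. It is in no SM/J group. As 1 of the 3 treated WSB/EiJ arrays it enters each WSB/EiJ effect and the mean effect of the other strains. It also enters the shared estimate of the spread, so counts are given with and without it. Effects and counts of WSB/EiJ include it unless stated otherwise. Values are log2 units of 1 probe set per gene, an effect is the treated mean minus the vehicle mean ± the model's standard error with n = 4 per group, and a gene passed at an adjusted p under 0.05 in limma over 12890 genes. At an unadjusted p under 0.05 the SM/J contrast held 14.5% of all genes tested, 7.85% higher and 6.63% lower, against which counts of list members at that level are to be read. Labels do not say whether animals of a group shared a cage. The p-values rest on the spread between animals pooled over the groups of all 4 strains, not on that of the SM/J animals alone.

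In SM/J 334 genes passed, 2.59% of those tested, of which 206 were higher (1.60%) and 128 lower (0.993%) after the drug. The effects were moderate: the median absolute effect of the 334 genes was 0.50, against 0.11 over all genes tested, and 45 exceeded 1. Values of treated and vehicle animals did not overlap for 307 of the 334 genes, 186 higher and 121 lower, whereas groups did not overlap for 13.6% of all genes tested, 6.48% higher and 7.15% lower. The 334 genes were selected from the same values, so this separation is not independent evidence for them. Without the array in doubt 600 genes passed, 343 higher (2.66%) and 257 lower (1.99%), 4.65% in all, and all 334 were among them. The first principal component of the 8 arrays held 40.6% of the variance and placed the vehicle animals between -18.3 and -6.64 and the treated animals between 2.16 and 27.5, with treated animal 4 nearest to the vehicle group and treated animal 1 farthest. The number of calls depended on single animals: it was 103 without treated animal 1 and 425 without treated animal 4. Of the 334 genes, 80 passed whichever of the 8 animals was left out, 51 higher and 29 lower. All 334 kept their direction in each of these fits, which was fixed in advance for the 307 genes without overlap.

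**Figure D1:**
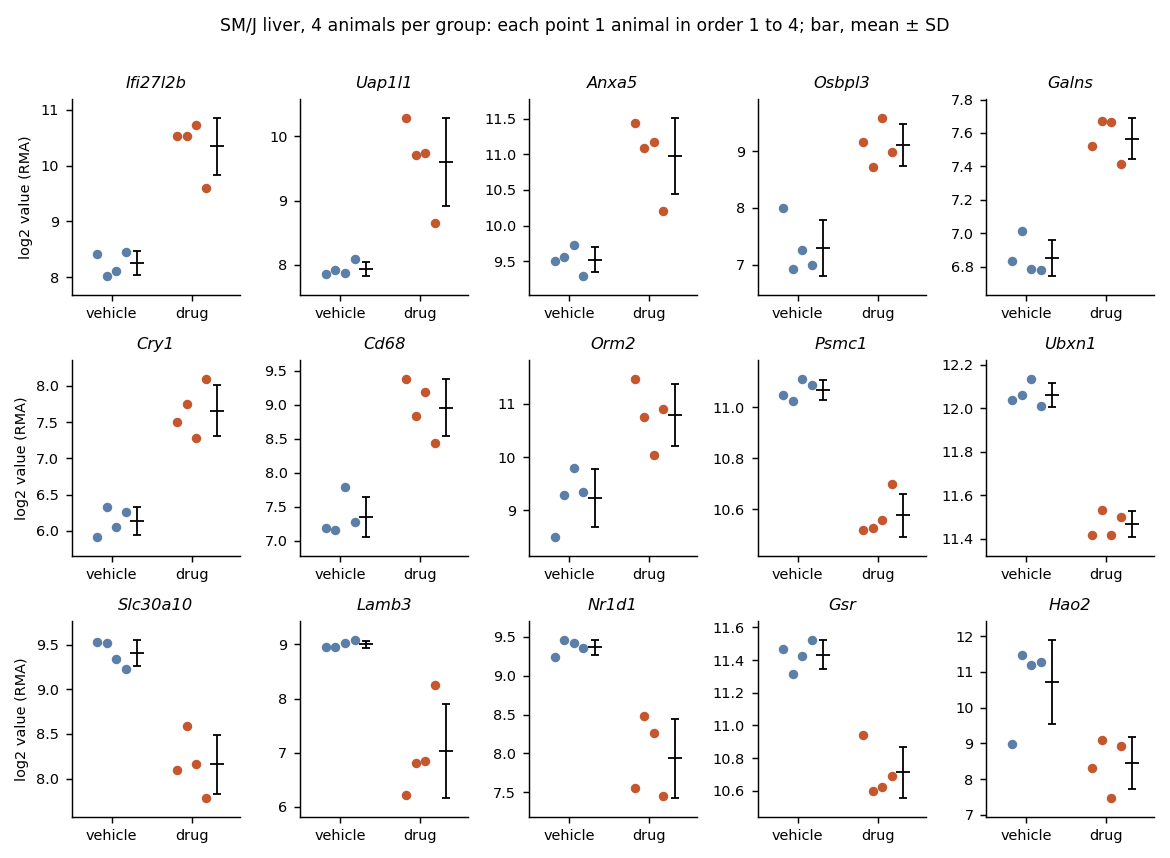
Log2 values of 15 genes in the 8 SM/J animals, vehicle in blue and PF-04287881 in red, each point 1 animal in the order 1 to 4 and the bar the mean ± SD of 4 animals. The groups are separate in every panel except Hao2, in which vehicle animal 1 lies among the treated animals.

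The genes that rose most included an interferon-inducible gene, a ubiquitin-like modifier, a cytoskeletal linker and lipid-handling proteins. Ifi27l2b, an interferon-inducible gene of the Ifi27 family, had values of 8.42, 8.02, 8.12 and 8.45 in the vehicle animals and of 10.53, 10.53, 10.72 and 9.59 in the treated animals. The lowest treated animal, number 4, was still above every vehicle animal. Its effect was 2.09 ± 0.22, a 4.27-fold rise (adjusted p = 4.3e-06, limma), and its probe set is of the type that can match several related transcripts. Uap1l1, a relative of the enzyme that makes the sugar donor UDP-N-acetylglucosamine, lay at 7.86, 7.92, 7.87 and 8.09 with vehicle and at 10.29, 9.72, 9.74 and 8.65 with the drug. Here too treated animal 4 responded least, and the groups did not overlap. The effect of Uap1l1 was 1.66 ± 0.25 (adjusted p = 0.000712). Osbpl3, an oxysterol-binding protein family member that moves lipids between membranes, lay at 8.004, 6.92, 7.27 and 6.999 in vehicle animals and at 9.15, 8.71, 9.58 and 8.99 in treated animals, without overlap and with an effect of 1.81 ± 0.23 (adjusted p = 7.63e-05).

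Ubd, which encodes the ubiquitin-like modifier FAT10, rose by 1.83 ± 0.28 (adjusted p = 0.000712), from 5.94, 5.67, 5.61 and 5.75 to 7.45, 7.77, 7.84 and 7.23. All 4 treated animals were above all 4 vehicle animals by more than a log2 unit. Eppk1, the keratin-binding protein epiplakin, rose by 1.86 ± 0.33 (adjusted p = 0.00283), and C6, a component of the terminal complement pathway, rose by 1.61 ± 0.29 (adjusted p = 0.00283). The 4 further genes among the 15 largest rises were Slc44a3 (1.52), a choline transporter-like protein, Ptgr1 (1.47), a prostaglandin reductase whose groups overlapped, Slc13a3 (1.44), a carrier of dicarboxylates, and Neb (1.41), which encodes nebulin. The largest fitted rise was that of Ugt2b37, a glucuronosyltransferase of a family with near-identical copies, so its probe set may also report relatives. Its values were 5.69, 5.10, 5.27 and 5.06 with vehicle and 8.08, 7.36, 8.16 and 6.42 with the drug, an effect of 2.22 ± 0.57 (adjusted p = 0.034). That call was lost when any of the vehicle animals or of treated animals 1 to 3 was left out (adjusted p up to 0.131).

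Among genes that fell, those with clear separation included a basement membrane chain, a manganese exporter and enzymes of glutathione metabolism. Lamb3, the beta chain of laminin-332, lay at 8.95, 8.94, 9.03 and 9.08 in the vehicle animals and at 6.22, 6.81, 6.85 and 8.26 in the treated animals. The vehicle values spanned a narrow range, and treated animal 4 fell far less than the other treated animals. The effect of Lamb3 was -1.97 ± 0.40 (adjusted p = 0.00742). Slc30a10, which exports manganese from hepatocytes, lay at 9.53, 9.52, 9.34 and 9.23 with vehicle and 8.10, 8.59, 8.17 and 7.78 with the drug, an effect of -1.25 ± 0.20 (adjusted p = 0.00143), and a second bright probe set of the gene gave -1.71. Gsr, glutathione reductase, lay at 11.47, 11.31, 11.43 and 11.52 and 10.94, 10.60, 10.62 and 10.69, without overlap, and fell to 0.607 of its vehicle level, an effect of -0.72 ± 0.12 (adjusted p = 0.00143). Ggct, which cleaves gamma-glutamyl peptides, had an effect of -1.04 ± 0.20 (adjusted p = 0.00574), Ddc, aromatic amino acid decarboxylase, one of -0.85 ± 0.15 (adjusted p = 0.00277), and Hspb6, a small heat shock protein, one of -0.72 ± 0.12 (adjusted p = 0.00143).

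The largest fitted decrease was that of Hao2, a peroxisomal oxidase of hydroxy acids. Its values were 8.98, 11.48, 11.18 and 11.27 in vehicle animals and 8.30, 9.08, 7.48 and 8.93 in treated animals. Vehicle animal 1 lay within the treated range, while the other vehicle animals were above every treated animal. The effect was -2.28 ± 0.60 (adjusted p = 0.039), a call that ended when any of treated animals 1 to 3 or vehicle animals 2 to 4 was left out (adjusted p up to 0.158). Ppp1r3c, which brings protein phosphatase 1 to glycogen, lay at 11.19, 11.57, 12.04 and 11.31 and 9.42, 10.98, 9.72 and 10.11, an effect of -1.47 ± 0.40 (adjusted p = 0.0458). Its groups did not overlap, and its call held only when treated animal 2 was the animal left out (adjusted p up to 0.186 among the other 7 fits). Of the 30 largest changes, 15 in each direction, 17 passed whichever animal was left out, 13 of those higher and 4 of those lower.

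Part of the lysosomal genes rose. Of 58 listed lysosomal enzymes and membrane proteins 51 were tested, and 9 passed, all higher, 17.6% against 1.60% of all genes. The effects of 41 of the 51 were positive and their median was 0.27, against -0.003 over all genes tested. The list count was 16 without the array in doubt, 1 without treated animal 1 and 15 without treated animal 4. The list score, the mean over members of each animal's log2 value minus the vehicle mean, was 0.43, 0.27, 0.34 and 0.10 in treated animals 1 to 4 and between -0.04 and 0.08 in vehicle animals. All treated animals were thus above all vehicle animals, treated animal 4 by little.

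Galns, the sulfatase that removes sulfate from keratan sulfate and chondroitin sulfate, had values of 6.83, 7.01, 6.79 and 6.78 with vehicle and 7.52, 7.67, 7.66 and 7.41 with the drug. The groups did not overlap, and the effect was 0.71 ± 0.11 (adjusted p = 0.000712), which held whichever animal was left out. Arsa, the sulfatase of sulfatides, lay at 9.99, 9.80, 9.88 and 9.68 and 10.92, 10.42, 10.90 and 10.09, with an effect of 0.74 ± 0.17 (adjusted p = 0.0182). Asah1, acid ceramidase, lay at 10.68, 10.82, 10.91 and 10.80 and 11.65, 11.17, 11.27 and 10.997, with an effect of 0.47 ± 0.11 (adjusted p = 0.0193). The lysosomal membrane glycoprotein Lamp1 rose by 0.31 ± 0.07 (adjusted p = 0.0135), the cholesterol exporters Npc1 and Npc2 by 0.38 ± 0.09 (adjusted p = 0.0156) and 0.44 ± 0.10 (adjusted p = 0.0174), the protective protein cathepsin A, Ctsa, by 0.45 ± 0.10 (adjusted p = 0.0104), and progranulin, Grn, by 0.23 ± 0.06 (adjusted p = 0.0301). These last 5 genes were chosen after their values were seen, because they complete the 9 calls, the ninth being Cd68, described with the macrophage genes. The Arsa call was lost without treated animal 1 or 3 or vehicle animal 2 or 4 (adjusted p up to 0.0985), and that of Asah1 without treated animal 1 or 3 or vehicle animal 1 or 4 (adjusted p up to 0.115).

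Promoter sequences of these genes are shown because E-box letters are the core of the CLEAR element. The last 120 bases before the annotated start are given from RefSeq (GRCm38.p6, the C57BL/6J reference and not SM/J), 5′ to 3′ on the strand of the gene, with CACGTG, or the CLEAR core TCACGTGA, in capitals. Lamp1 lies on the plus strand at chr8:13159041-13159160, Ctsa on the plus strand at chr2:164833653-164833772 for the second of its 2 listed starts, and Arsa on the minus strand at chr15:89477425-89477544.
Lamp1: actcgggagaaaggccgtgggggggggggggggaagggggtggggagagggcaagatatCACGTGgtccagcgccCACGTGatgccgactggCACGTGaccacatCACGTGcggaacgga
Ctsa: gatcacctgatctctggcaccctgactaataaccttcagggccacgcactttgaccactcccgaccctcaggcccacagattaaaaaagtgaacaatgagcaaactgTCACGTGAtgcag
Arsa: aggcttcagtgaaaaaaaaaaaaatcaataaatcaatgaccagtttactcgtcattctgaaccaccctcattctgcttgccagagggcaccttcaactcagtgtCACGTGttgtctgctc
Lamp1 held 4 E-boxes in this stretch, and Ctsa and Arsa 1 each, that of Ctsa being the CLEAR core, while the stretch before the other listed Ctsa start, which is not shown, held none. Within 250 bases before a start, on either strand, TCACGTGA occurred in 6 of the 46 lysosomal genes with a promoter entry (13.0%), against 1.64% of all tested genes with an entry. CACGTG, which is contained in TCACGTGA, occurred in 14 of the 46 (30.4%) against 9.66%. Among the 206 genes that were higher in SM/J, 158 had an entry and 30 of these held CACGTG (18.99%), and among the 128 lower genes 8 of 108 did (7.41%). TCACGTGA occurred in 4 of the 158 higher genes (2.53%) and in 2 of the 108 lower genes (1.85%). Of the 9 lysosomal genes that passed, 6 had an entry, of which 1 held TCACGTGA and 3 held CACGTG. The promoters of Cd68, Grn and Npc2 held none of these letters in the 120 bases read.

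Of 33 tested genes of nutrient sensing and autophagy 3 passed, all higher (9.09% against 1.60% of all genes): Fnip1 (0.72 ± 0.19, adjusted p = 0.0375), a partner of folliculin, Lamtor5 (0.45 ± 0.12, adjusted p = 0.0369), a subunit of the Ragulator scaffold, and Rragc (0.43 ± 0.11, adjusted p = 0.0415), a Rag GTPase. The list count was 5 without the array in doubt and 0 without treated animal 1, and each of the 3 calls was lost in at least 6 of the 8 fits that left out 1 animal (adjusted p up to 0.202). The list's median effect was 0.03. None of 17 tested subunits of the vacuolar proton ATPase passed in limma, although 5 had an unadjusted p under 0.05, all higher, and 15 of 17 effects were positive with a median of 0.19. Its list score was 0.41, 0.18, 0.21 and 0.02 in treated animals 1 to 4 and between -0.06 and 0.06 in vehicle animals, so that treated animal 4 lay within the vehicle range.

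Anxa5, annexin A5, a cytosolic protein that binds phosphatidylserine, rose in every treated animal. Its values were 9.51, 9.56, 9.73 and 9.30 in vehicle animals and 11.44, 11.09, 11.17 and 10.21 in treated animals, with no overlap, and the effect was 1.45 ± 0.23, 2.73-fold (adjusted p = 0.000876). Of 38 tested genes of phospholipid and sphingolipid metabolism Anxa5 and Asah1 were the 2 that passed (5.26% higher against 1.60% of all genes), and the median was 0.07. Dhcr7, the last enzyme of cholesterol synthesis, lay at 8.30, 7.85, 7.86 and 8.16 with vehicle and at 10.07, 9.26, 9.45 and 8.64 with the drug, an effect of 1.32 ± 0.31 (adjusted p = 0.0184) that did not pass without treated animal 1 or 3 or vehicle animal 2 or 3 (adjusted p up to 0.106). It was the 1 call among 21 genes of cholesterol synthesis and uptake (4.76% higher against 1.60% of all genes), of which 20 had positive effects with a median of 0.34. The treated animals differed widely in this list: their scores were 1.42, 0.32, 0.70 and -0.16, against -0.08 to 0.05 in vehicle animals, so treated animal 4 was below the vehicle group. Among 23 genes of fatty acid synthesis Me1, malic enzyme, fell (-0.72 ± 0.15, adjusted p = 0.00983) and Acly, ATP citrate lyase, rose (0.57 ± 0.15, adjusted p = 0.0411). Each call was 4.35% of the list, against 0.993% of all genes lower and 1.60% higher. The Acly call was lost without any of treated animals 1 to 3 or vehicle animals 1, 3 and 4 (adjusted p up to 0.18).

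Proteasome genes were the list with the most lower calls in SM/J. Of 40 tested genes 17 were lower and 0 higher, 42.5% lower against 0.993% of all genes, and 31 were lower and 2 higher at an unadjusted p under 0.05. The median effect was -0.27, and 38 of 40 effects were negative. By role, 4 of the 6 ATPases of the regulatory particle passed (median -0.38), as did 6 of its 11 other subunits (median -0.28), 3 of 7 subunits of the alpha ring of the core (median -0.26) and 4 of 7 of the beta ring (median -0.27). None of the 6 assembly chaperones passed (median -0.15, each effect negative). The list count was 19 without the array in doubt, 8 without treated animal 1 and 22 without treated animal 4. The list score was -0.29, -0.25, -0.30 and -0.16 in treated animals 1 to 4 and between -0.05 and 0.05 in vehicle animals, so the groups did not overlap.

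The individual decreases were small and tight. Psmc1, an ATPase of the regulatory particle, had values of 11.05, 11.03, 11.11 and 11.09 in the vehicle animals and 10.52, 10.53, 10.56 and 10.70 in the treated animals. The 4 treated animals lay close together and below all vehicle animals, and the effect was -0.49 ± 0.09, 0.71 of the vehicle level (adjusted p = 0.00277). Psmc4, another of these ATPases, went from 11.19, 11.07, 11.16 and 11.08 to 10.61, 10.61, 10.57 and 10.81, an effect of -0.47 ± 0.08 (adjusted p = 0.00153), and a second probe set gave -0.20. Psmd1, a scaffold subunit, lay at 11.80, 11.71, 11.77 and 11.71 and 11.21, 11.17, 11.13 and 11.38, an effect of -0.53 ± 0.10 (adjusted p = 0.00468). Psmb5, which carries a protease site of the core, had an effect of -0.29 ± 0.06 (adjusted p = 0.00803) and was chosen after its values were seen. These calls held whichever animal was left out, as did those of Psmb3, Psmc3, Psmc5 and Psmd3. The positive effects were those of Psmd8 (0.33 ± 0.12, adjusted p = 0.19) and of Nfe2l1 (0.31 ± 0.12, adjusted p = 0.187), the transcription factor that drives proteasome genes, and neither passed.

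**Figure D2:**
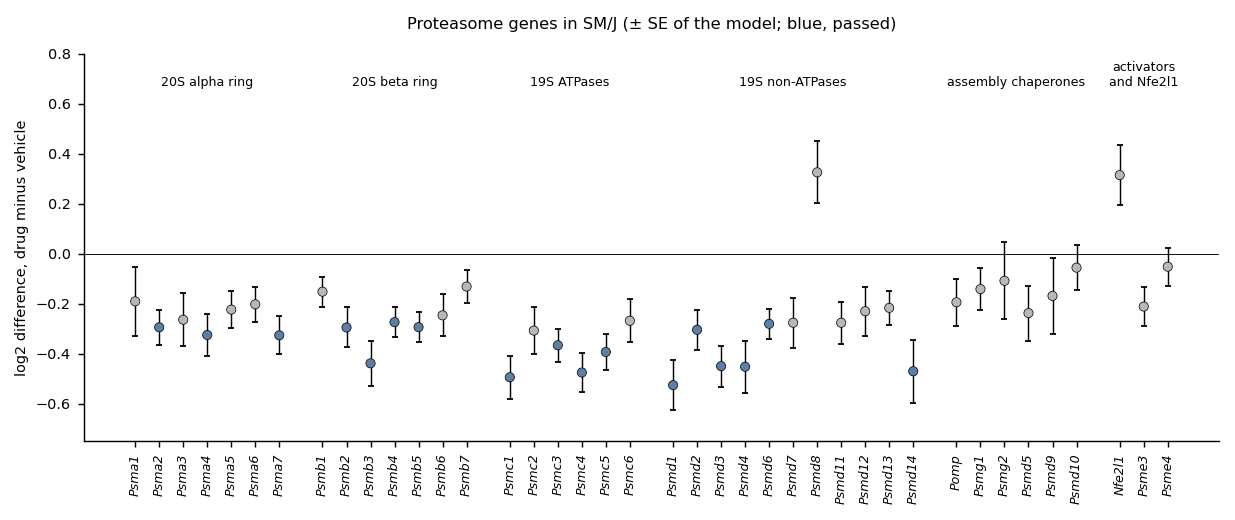
Log2 difference, drug minus vehicle, ± the model's standard error for 40 proteasome genes in SM/J, ordered by role, with genes that passed in blue. The 17 passing genes all lie below 0 and fall in both rings of the core and in both parts of the regulatory particle.

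Ubxn1 and Nsfl1c, which were among the lower genes with the smallest adjusted p, encode adaptors of VCP, an ATPase that unfolds ubiquitinated proteins. Ubxn1 lay at 12.04, 12.06, 12.14 and 12.01 with vehicle and at 11.42, 11.53, 11.42 and 11.50 with the drug, and every treated animal was below every vehicle animal. The effect was -0.59 ± 0.06 (adjusted p = 4.3e-06). Nsfl1c, the cofactor p47, lay at 12.11, 11.997, 12.04 and 12.10 and 11.61, 11.57, 11.57 and 11.70, also without overlap, an effect of -0.45 ± 0.08 (adjusted p = 0.00277). Interferon-inducible subunits had effects of the opposite sign: of 12 genes of the immunoproteasome and class I presentation 2 were higher (16.7% against 1.60% of all genes) and 0 lower, 10 had treated values above all vehicle values (6.48% of all genes did), and the median was 0.33. Psmb8, a protease subunit of the immunoproteasome, lay at 9.51, 9.60, 9.65 and 9.57 and 10.37, 10.41, 10.47 and 10.20, an effect of 0.78 ± 0.19 (adjusted p = 0.0269), and Erap1, which trims peptides for class I molecules, rose by 0.34 ± 0.09 (adjusted p = 0.0375). The Psmb8 call held only when treated animal 4 was left out (adjusted p up to 0.0915 in the other 7 fits), and that of Erap1 was lost without any of treated animals 1 to 3 or vehicle animals 1 and 2 (adjusted p up to 0.144).

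Clock genes had the 2 largest differences among the 7 genes whose effect in SM/J differed from the mean of the other 3 strains. In the clock, the activators CLOCK and BMAL1, the product of Arntl, drive the repressor genes of the Cry and Per families and Nr1d1, whose product REV-ERB alpha represses Arntl. Cry1 rose in SM/J, from 5.92, 6.33, 6.05 and 6.26 in vehicle animals to 7.51, 7.75, 7.28 and 8.10 in treated animals. Every treated animal was about a log2 unit or more above every vehicle animal, and the effect was 1.52 ± 0.25 (adjusted p = 0.00151). In the other strains its effect was -0.60 in MA/MyJ (adjusted p = 0.188), -1.004 in NZW/LacJ (adjusted p = 0.00508) and -0.32 in WSB/EiJ (adjusted p = 0.448). The SM/J effect exceeded the mean of the other 3 by 2.16 ± 0.29 (adjusted p = 0.00095, interaction contrast in limma, and 0.000595 without the array in doubt), and this held whichever SM/J animal was left out.

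Nr1d1 fell in SM/J, from 9.24, 9.46, 9.42 and 9.35 to 7.55, 8.48, 8.26 and 7.45. The vehicle animals were close together, and the treated animals were spread over a log2 unit below them. Its effect was -1.43 ± 0.35 (adjusted p = 0.0262), while MA/MyJ showed 0.62, NZW/LacJ -0.27 and WSB/EiJ 2.32, and it differed from the mean of these by -2.32 ± 0.41 (adjusted p = 0.0185). The SM/J call held only when treated animal 2 was left out (adjusted p up to 0.108 in the other 7 fits), and the difference was lost without treated animal 1 or 4 or vehicle animal 2 (adjusted p up to 0.0874). Clock fell from 9.05, 8.996, 8.98 and 8.84 to 8.27, 8.64, 8.39 and 8.37, an effect of -0.55 ± 0.10 (adjusted p = 0.00458), without overlap. Arntl had values of 8.66, 7.85, 8.67 and 6.92 and 7.01, 7.33, 6.37 and 7.08, which overlapped because vehicle animal 4 was low. Its effect was -1.08 ± 0.29 (adjusted p = 0.0423), a second bright probe set gave 0.00, and the call ended on leaving out any of treated animals 1, 3 and 4 or vehicle animals 1 to 3 (adjusted p up to 0.179). The Arntl effect was less negative than the -2.83 of NZW/LacJ by 1.75 ± 0.41 (adjusted p = 0.0115).

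Of 20 tested clock genes 1 was higher (5% against 1.60% of all genes) and 3 lower (15% against 0.993% of all genes). The largest effect among the others was that of Per3 (0.72 ± 0.28, adjusted p = 0.207). Arnt, a partner of the dioxin receptor and of hypoxia-inducible factors that belongs to the same protein family as CLOCK and BMAL1, rose by 0.53 ± 0.08 (adjusted p = 0.000585). The sampling hour of each animal is not in the labels read here, and its part in these differences was not tested. The Cry1 promoter is shown because CLOCK and BMAL1 bind the E-box letters CACGTG, given in capitals. The 120 bases before its start lie on the minus strand at chr10:85185055-85185174 (RefSeq, GRCm38.p6).
Cry1: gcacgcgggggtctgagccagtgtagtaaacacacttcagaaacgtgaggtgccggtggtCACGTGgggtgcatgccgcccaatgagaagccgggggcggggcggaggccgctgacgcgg
Cry1 held 1 such E-box, and the matching stretches of Nr1d1, Arntl and Clock held none.

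**Figure D3:**
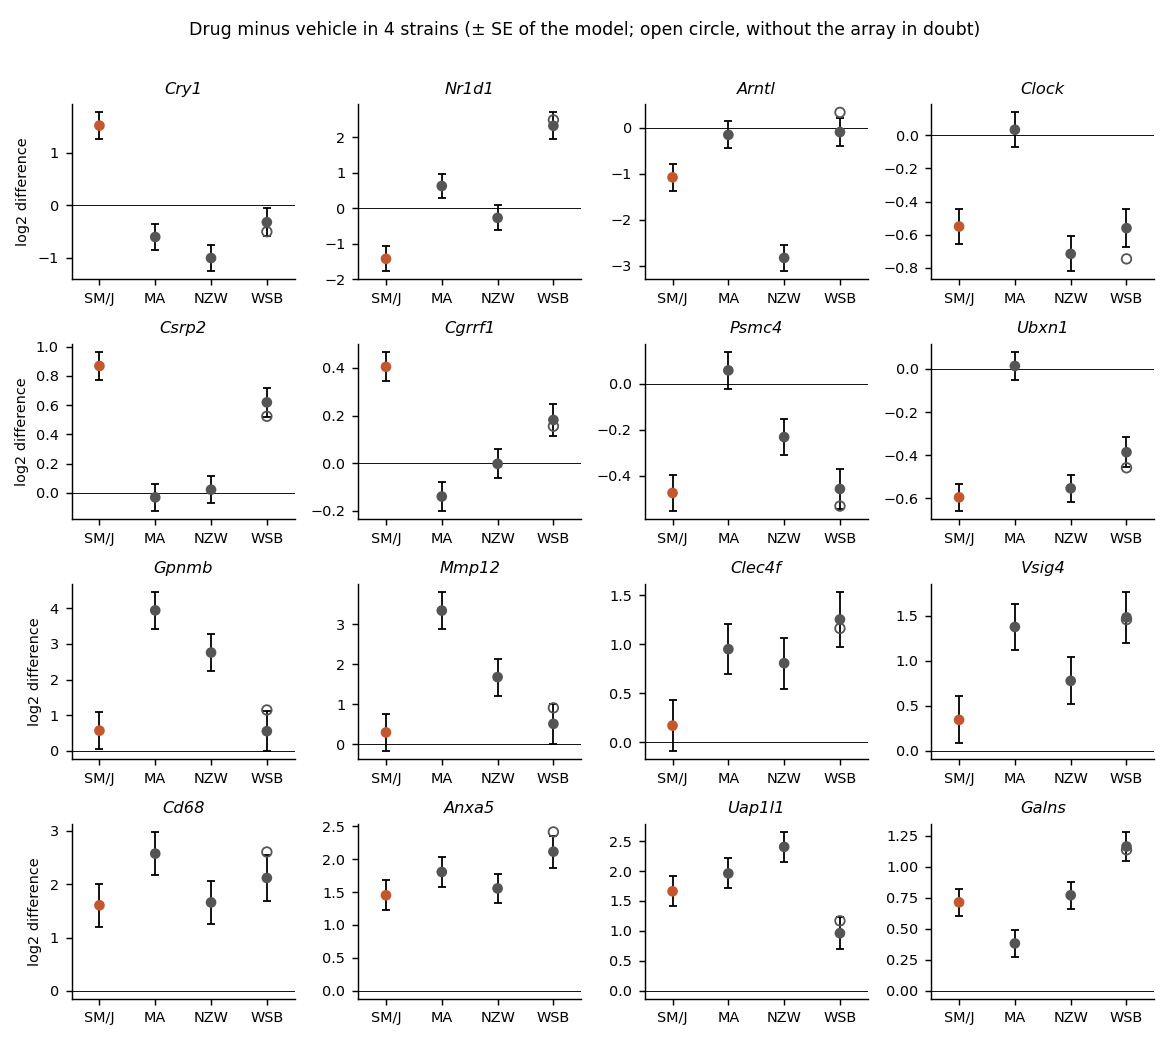
Log2 difference, drug minus vehicle, ± the model's standard error for 16 genes in SM/J (red), MA/MyJ, NZW/LacJ and WSB/EiJ, the open circle giving WSB/EiJ without the array in doubt. Cry1 is above 0 in SM/J alone and Nr1d1 is lowest there, whereas Gpnmb and Mmp12 are far higher in MA/MyJ and NZW/LacJ than in SM/J.

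Acute phase proteins, which hepatocytes secrete in inflammation, were higher in part. Of 28 tested genes 5 passed, all higher (17.9% against 1.60% of all genes), and the median was 0.13. Orm2, an orosomucoid, had values of 8.502, 9.29, 9.80 and 9.34 in vehicle animals and 11.47, 10.75, 10.04 and 10.90 in treated animals. Treated animal 3 was only just above the highest vehicle animal, and the effect was 1.56 ± 0.31 (adjusted p = 0.00617). Its close relative Orm1, whose signal may be shared with it, lay at 10.86, 11.95, 12.12 and 11.89 and 13.12, 12.53, 12.66 and 12.38, an effect of 0.97 ± 0.20 (adjusted p = 0.00881) that missed the threshold without treated animal 1 (adjusted p = 0.0541). Hpx, the heme scavenger hemopexin, rose by 0.24 ± 0.04 (adjusted p = 0.00372), a small change with tight groups. Apcs, serum amyloid P, rose by 0.73 ± 0.20 (adjusted p = 0.0402) and Hamp, the iron hormone hepcidin, by 0.33 ± 0.09 (adjusted p = 0.0375), and each of these 2 calls was lost in 6 of the 8 fits that left out 1 animal (adjusted p up to 0.161 and 0.16). Saa1 (1.03, adjusted p = 0.48) and Lcn2 (1.29, adjusted p = 0.13), named after their values were seen, did not pass. The list count was 5 without the array in doubt and 2 without treated animal 1.

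Interferon-stimulated genes other than Ifi27l2b mostly did not pass. Of 38 tested, Ifi27l2b and Ifitm3 (0.45 ± 0.12, adjusted p = 0.0471), a membrane protein that restricts viral entry, were higher (5.26% against 1.60% of all genes). Of the 38, 0 were lower, and 10 were higher at an unadjusted p under 0.05. The Ifitm3 call held only when treated animal 4 was left out (adjusted p up to 0.144 in the other 7 fits). The median was 0.17, and of the same 38 genes 3 were higher in MA/MyJ (3.17% of all genes) with a median of 0.29, 23 in NZW/LacJ (15.1% of all genes) with a median of 0.69, and 2 in WSB/EiJ (6.91% of all genes), where 6 were lower (12.4% of all genes) and the median was 0.22. None of 28 tested cytokines, inflammatory receptors and adhesion molecules passed in limma, and 4 were higher at an unadjusted p under 0.05. The largest effects were those of Vcam1 (1.07 ± 0.38, adjusted p = 0.157), an adhesion molecule, and Tlr2 (0.99 ± 0.31, adjusted p = 0.0882), a receptor of bacterial lipoproteins.

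Of the Kupffer cell markers, 1 passed in SM/J, and 5 to 10 were higher in each of the other 3 strains, WSB/EiJ included, which like SM/J is not coded for vacuolation. Larger shares of all genes tested were also higher in those strains than in SM/J. Cd68, a lysosomal glycoprotein of macrophages, rose in SM/J, from 7.19, 7.16, 7.78 and 7.27 in vehicle animals to 9.38, 8.83, 9.18 and 8.44 in treated animals. The groups did not overlap, and treated animal 4 was again the lowest. Its effect was 1.61 ± 0.41 (adjusted p = 0.0303), while MA/MyJ showed 2.57, NZW/LacJ 1.66 and WSB/EiJ 2.12, and the difference from the mean of these 3 was -0.51 ± 0.47 (adjusted p = 0.836). The SM/J call was lost without any of treated animals 1 to 3 or vehicle animals 1, 2 and 4 (adjusted p up to 0.121). Cd68 was the 1 call among 19 Kupffer cell markers (5.26% against 1.60% of all genes), whose median effect was 0.25. In MA/MyJ 10 were higher (3.17% of all genes) with a median of 1.08, and in NZW/LacJ 5 (15.1% of all genes) with a median of 0.64. In WSB/EiJ 10 were higher (6.91% of all genes) and 2 lower (12.4% of all genes), with a median of 0.99. Those counts were not tested against each other. In bulk liver, fewer or more cells of a type and less or more RNA per cell cannot be told apart.

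Other markers that define Kupffer cells did not pass. Clec4f, a lectin of Kupffer cells, lay at 10.03, 10.04, 10.34 and 9.97 with vehicle and 10.26, 9.82, 10.27 and 10.70 with the drug, overlapping, with an effect of 0.17 ± 0.26 (adjusted p = 0.836). Vsig4, a complement receptor of these cells, lay at 8.88, 9.15, 9.55 and 9.23 and 9.66, 9.01, 9.57 and 9.95, an effect of 0.34 ± 0.26 (adjusted p = 0.601), and Timd4, a phosphatidylserine receptor, had an effect of 0.50 ± 0.36 (adjusted p = 0.58). Clec4f had passed at 0.95 in MA/MyJ and 0.80 in NZW/LacJ, and Vsig4 at 1.38 and 0.78. In WSB/EiJ both passed as well, at 1.25 (adjusted p = 0.00233) and 1.48 (adjusted p = 0.000551). The SM/J effects did not differ at the threshold from the mean of MA/MyJ and NZW/LacJ (-0.71 ± 0.32, adjusted p = 0.299, and -0.73 ± 0.32, adjusted p = 0.283). The Kupffer list score was 0.35, 0.01, 0.31 and 0.59 in treated animals 1 to 4 and -0.07, -0.10, 0.23 and -0.06 in vehicle animals, so the groups overlapped.

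Of the genes of lipid-laden and recruited macrophages, Gpnmb and Mmp12 passed the difference from the strains coded for vacuolation, but both were dim in SM/J. Gpnmb, a transmembrane glycoprotein that marks macrophages under lysosomal load, lay at 5.50, 5.28, 5.53 and 5.56 in vehicle animals and 6.17, 6.02, 5.99 and 5.98 in treated animals of SM/J. The groups did not overlap, but both lay below 6.49, the level used to call a gene dim, and the effect was 0.57 ± 0.51 (adjusted p = 0.684). No SM/J array exceeded that level for Gpnmb or for Mmp12, so both genes were tested only through arrays of other strains. Their difference from other strains is therefore not independent of that filter. With the 8 SM/J arrays fitted alone Gpnmb passed (adjusted p = 0.0117). In MA/MyJ its effect was 3.94, in NZW/LacJ 2.76 and in WSB/EiJ 0.55, and the SM/J effect minus the mean of MA/MyJ and NZW/LacJ was -2.78 ± 0.63 (adjusted p = 0.0264, and 0.00994 without the array in doubt). This difference was lost without treated animal 4 or vehicle animal 2, 3 or 4 (adjusted p up to 0.0599). Mmp12, macrophage elastase, was similarly dim at 4.86, 4.95, 4.89 and 4.95 and 5.46, 4.96, 5.19 and 5.23, an effect of 0.30 ± 0.46 (adjusted p = 0.836) against 3.34 and 1.68, and its difference of -2.21 ± 0.57 (adjusted p = 0.0433) missed the threshold whichever SM/J animal was left out (adjusted p up to 0.0982).

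Lgals3, galectin-3, lay at 7.43, 7.38, 8.04 and 7.56 with vehicle and 9.22, 8.46, 8.69 and 9.22 with the drug. All treated animals were above all vehicle animals, and the effect of 1.30 ± 0.39 did not pass (adjusted p = 0.0812), though it did with the 8 SM/J arrays fitted alone (adjusted p = 0.0133) and with array weights (adjusted p = 0.00684). Lyz2, lysozyme of myeloid cells, had an effect of 0.46 ± 0.29 (adjusted p = 0.516). Over the 18 tested markers of monocytes and lipid-associated macrophages 0 passed in SM/J in limma and 3 were higher at an unadjusted p under 0.05, with a median of 0.37, whereas 10 were higher in MA/MyJ (3.17% of all genes), 9 in NZW/LacJ (15.1% of all genes) and 4 in WSB/EiJ (6.91% of all genes). Their list score was 0.51, 0.22, 0.37 and 0.41 in treated animals and between -0.10 and 0.14 in vehicle animals, without overlap. The part of macrophage number in the rise of Cd68 and of the lysosomal genes was not tested.

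**Figure D4:**
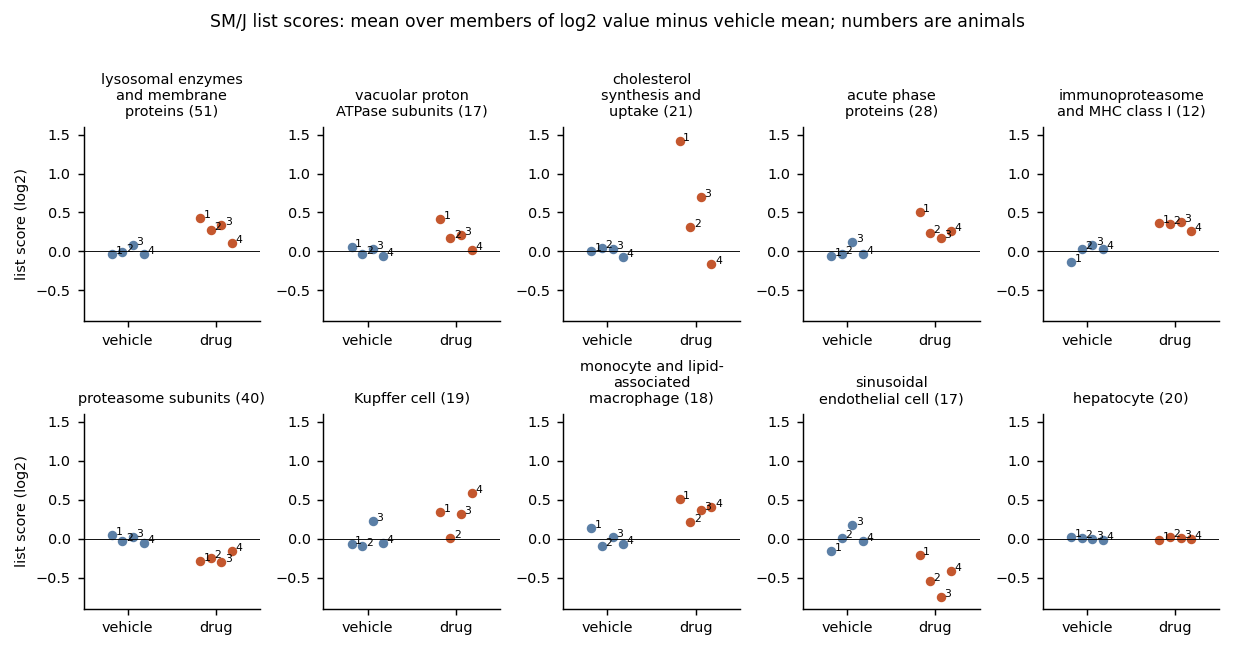
List scores of the 8 SM/J animals, the mean over members of log2 value minus the vehicle mean, for 10 lists with the number of members in brackets and the animal number beside each point. Treated animals lie above vehicle animals for lysosomal genes and below them for proteasome subunits and sinusoidal endothelial markers, and the cholesterol scores of treated animals run from -0.16 to 1.42.

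Sinusoidal endothelial markers all had negative effects. The 17 tested genes had a median of -0.51, and their range was -0.84 to -0.11, while the median in MA/MyJ was -0.36, in NZW/LacJ -0.18 and in WSB/EiJ -0.16. At an unadjusted p under 0.05 there were 10 lower and 0 higher genes, against 6.63% of all genes lower. With array weights 13 of the 17 passed as lower, but so did 1276 of all 12890 genes tested. Only Flt4, a vascular endothelial growth factor receptor, passed: it lay at 8.65, 8.95, 9.19 and 8.90 and 8.48, 8.27, 7.83 and 8.09, an effect of -0.76 ± 0.20 (adjusted p = 0.0394), and its other bright probe set gave -0.24. This call held only when vehicle animal 1 was left out (adjusted p up to 0.16 in the other 7 fits). The scores of this list were -0.21, -0.55, -0.75 and -0.42 in treated animals and -0.15, 0.01, 0.18 and -0.03 in vehicle animals. The groups did not overlap, with treated animal 1 and vehicle animal 1 closest. The hepatocyte score stayed between -0.02 and 0.02 in all 8 animals, and among 20 hepatocyte markers Hpx was the 1 call, with a median effect of -0.00. In limma 0 of the 6 neutrophil, 8 T and natural killer cell, 7 B and plasma cell, 14 stellate cell, 4 cholangiocyte and 3 erythroid markers tested passed, with 0, 2, 0, 1, 0 and 0 at an unadjusted p under 0.05.

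No listed drug-metabolising gene passed as higher in SM/J. Of 40 tested targets of the nuclear receptors CAR and PXR 0 were higher and 3 lower (7.50% lower against 0.993% of all genes), while 5 were higher and 9 lower at an unadjusted p under 0.05. Ces2a, a carboxylesterase, lay at 12.79, 12.86, 12.96 and 12.97 with vehicle and 11.52, 12.31, 12.36 and 12.49 with the drug, an effect of -0.73 ± 0.18 (adjusted p = 0.03). Cyp2c37 lay at 11.45, 12.63, 12.57 and 12.58 and 10.43, 11.40, 10.87 and 12.12, an effect of -1.10 ± 0.29 (adjusted p = 0.0383), with vehicle animal 1 far below the other vehicle animals and within the treated range. Cyp2c29 had an effect of -0.56 ± 0.15 (adjusted p = 0.0359). All 3 belong to families of near-identical genes whose probe sets may share signal, and each call was lost in at least 6 of the 8 fits that left out 1 animal (adjusted p up to 0.189). The count was 7 lower and 2 higher without the array in doubt and 0 without treated animal 1.

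Other metabolic lists held few calls, to be read against 0.993% of all genes lower and 1.60% higher. Vnn1, the pantetheinase that responds to PPAR alpha, lay at 13.37, 13.44, 13.31 and 13.17 and 12.03, 12.12, 12.45 and 13.03, with treated animal 4 close to the vehicle animals, an effect of -0.91 ± 0.22 (adjusted p = 0.0208), and was the 1 call among 34 genes of fatty acid oxidation. Acox2, a peroxisomal oxidase of bile acid synthesis, had an effect of -0.48 ± 0.12 (adjusted p = 0.0311) and was the 1 call among 27 bile acid genes. Gsr was the 1 call among 27 genes of the NRF2 response, Ppp1r3c among 26 of glycogen and glucose metabolism, and Mrpl4 (-0.33 ± 0.09, adjusted p = 0.0428) among 77 of the mitochondrial ribosome, and all were lower. Among 30 genes of metal and heme handling Slc30a10 and Blvrb (-0.54 ± 0.14, adjusted p = 0.0388), biliverdin reductase B, were lower and Hamp higher. The calls of Vnn1, Acox2, Mrpl4 and Blvrb were lost in 6, 6, 8 and 7 of the 8 fits that left out 1 animal (adjusted p up to 0.107, 0.147, 0.138 and 0.115).

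The lists of stress, division and matrix genes gave no call in SM/J. Hspb6 and Lamb3, described above, passed but are not among the listed genes tested. In limma 0 of 38 listed unfolded protein or integrated stress genes passed, with 9 at an unadjusted p under 0.05 (14.5% of all genes were), and the largest effect was that of Nupr1 (1.65 ± 0.49, adjusted p = 0.0711), a stress-induced nuclear protein. Likewise 0 of 19 heat shock genes, 21 p53 targets and apoptosis genes, 22 cell cycle genes, 32 matrix genes, 30 urea cycle and amino acid genes, 58 respiratory chain subunits and 6 class II presentation genes passed, with 3, 1, 5, 2, 4, 1 and 0 at an unadjusted p under 0.05. Their largest effects included Hspb1 (1.37 ± 0.47, adjusted p = 0.126), Cdkn1a (-0.57 ± 0.59, adjusted p = 0.736), Myc (0.83 ± 0.36, adjusted p = 0.272), Postn (0.54 ± 0.25, adjusted p = 0.308), Got1 (0.63 ± 0.29, adjusted p = 0.301) and H2-Ab1 (0.49 ± 0.37, adjusted p = 0.604).

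**Figure D5:**
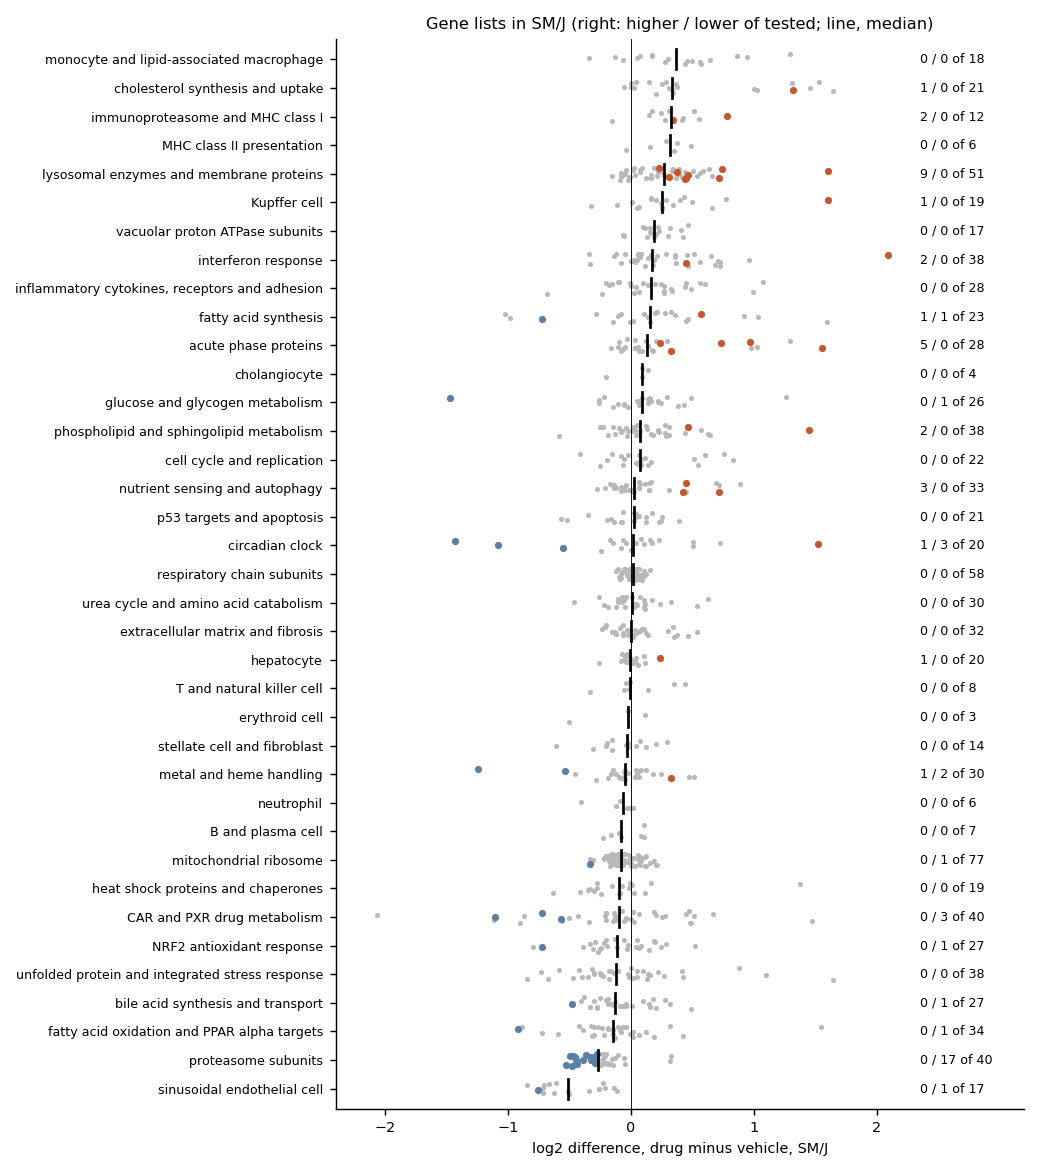
Log2 differences, drug minus vehicle, of the tested members of 37 gene lists in SM/J, ordered by the list median (black line), with members that passed in red (higher) or blue (lower) and the counts at the right. Proteasome subunits show 17 of 40 lower and lysosomal genes 9 of 51 higher.

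The SM/J response was smaller in number of genes than those of the other strains under the same test. In MA/MyJ 534 genes passed (4.14%), in NZW/LacJ 2766 (21.5%) and in WSB/EiJ 2488 (19.3%). Without the array in doubt the count was 4180 (32.4%) in WSB/EiJ and 600 (4.65%) in SM/J. These counts were not tested against each other, and that of SM/J depended on single animals and on the processing. Of the 334 SM/J genes, 64 also passed in MA/MyJ, which is 19.2% of the SM/J genes and 11.99% of the MA/MyJ genes, 180 in NZW/LacJ (53.9% and 6.51%) and 149 in WSB/EiJ (44.6% and 5.99%). The sign of the effect in these 334 genes was the same in MA/MyJ for 78.7%, in NZW/LacJ for 81.7% and in WSB/EiJ for 76.9%, against 61.6%, 58.8% and 56.6% of all genes tested. Genes that passed in all 4 strains numbered 23, of which 19 were higher and 2 lower in every strain. Among them, Anxa5 had effects of 1.81, 1.55 and 2.11 in MA/MyJ, NZW/LacJ and WSB/EiJ, Uap1l1 of 1.96, 2.40 and 0.96, Galns of 0.38, 0.77 and 1.16, and Me1 of -0.65, -0.84 and -0.83.

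When the SM/J effect was tested against the mean effect of the other 3 strains, 7 genes differed (0.0543%), 5 with a higher (0.0388%) and 2 with a lower effect in SM/J (0.0155%), and 1103 did so at an unadjusted p under 0.05. Without the array in doubt 149 genes differed (1.16%), 82 higher (0.636%) and 67 lower (0.520%). Besides Cry1 and Nr1d1, the list held Csrp2, a LIM domain protein of muscle and stellate cells, which lay at 9.68, 9.58, 9.96 and 9.67 with vehicle and 10.70, 10.43, 10.63 and 10.61 with the drug. All treated animals were above all vehicle animals, and the effect of 0.87 ± 0.09 (adjusted p = 4.3e-06) compared with -0.03, 0.02 and 0.62, a difference of 0.66 ± 0.11 (adjusted p = 0.0107) that missed the threshold without vehicle animal 2 (adjusted p = 0.0539). Cgrrf1, a RING finger protein, lay at 10.18, 10.22, 10.31 and 10.08 and 10.55, 10.55, 10.74 and 10.57, an effect of 0.40 ± 0.06 (adjusted p = 0.000712) and a difference of 0.39 ± 0.07 (adjusted p = 0.0231, up to 0.0903 without treated animal 3 or vehicle animal 2 or 4). With probe sets averaged this difference missed the threshold (adjusted p = 0.0604), and the other bright probe sets of Cgrrf1 gave effects of 0.21 and 0.22. Against WSB/EiJ alone the Cgrrf1 effect did not differ at the threshold (0.22 ± 0.09, adjusted p = 0.157).

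For the other 3 genes the difference came with an SM/J effect that did not itself pass. Mcf2l, a guanine nucleotide exchange factor, lay at 8.21, 8.55, 8.49 and 8.22 and 7.24, 7.92, 7.77 and 7.31, an effect of -0.81 ± 0.23 (adjusted p = 0.0617) and a difference of -1.38 ± 0.27 (adjusted p = 0.0469). Rpl7l1, a relative of a ribosomal protein, had an effect of 0.30 ± 0.10 (adjusted p = 0.13) and a difference of 0.73 ± 0.12 (adjusted p = 0.0107), but its other probe sets gave effects of -0.03 each. Erp27, a chaperone-like protein of the endoplasmic reticulum, was dim in SM/J, at 4.62, 4.57, 4.66 and 4.95 and 5.06, 5.06, 5.07 and 5.27, with a difference of 0.84 ± 0.17 (adjusted p = 0.0469). Leaving out single SM/J animals ended the Mcf2l difference in 6, the Erp27 difference in 7 and the Rpl7l1 difference in 1 of 8 fits, that without vehicle animal 2 (adjusted p up to 0.148, 0.121 and 0.0539).

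Against the mean of MA/MyJ and NZW/LacJ alone, the strains coded for vacuolation, 208 genes differed (1.61%), 48 with a higher (0.372%) and 160 with a lower effect in SM/J (1.24%), and 446 without the array in doubt (3.46%). Beside Gpnmb, Mmp12 and Cry1 these held Csrp2 (0.87 ± 0.11, adjusted p = 0.000332), Psmc4 (-0.39 ± 0.10, adjusted p = 0.0389), whose effect was 0.06 in MA/MyJ and -0.23 in NZW/LacJ, and Ubxn1 (-0.33 ± 0.08, adjusted p = 0.0317), at 0.01 and -0.55. Of the same 40 proteasome genes 1 was lower in MA/MyJ (0.978% of all genes), 10 in NZW/LacJ (6.40% of all genes) and 33 in WSB/EiJ (12.4% of all genes), and 2 of them, Psmc4 and Psmd2, passed this difference. Single pairs gave 31 genes against MA/MyJ (0.240%), 699 against NZW/LacJ (5.42%) and 595 against WSB/EiJ (4.62%).

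Some genes passed in SM/J and in no other strain, 71 in all, 47 higher and 24 lower, but 17 of them passed in WSB/EiJ once the array in doubt was left out. Acsl4, which activates long-chain and arachidonic fatty acids, lay at 8.80, 8.31, 8.33 and 8.40 in vehicle animals and 10.06, 9.44, 9.53 and 9.74 in treated animals, without overlap. Its effect was 1.24 ± 0.24 (adjusted p = 0.00455), against 0.59, 0.28 and 0.46 in MA/MyJ, NZW/LacJ and WSB/EiJ. Without the array in doubt it passed in WSB/EiJ too (0.90, adjusted p = 0.00321), and the difference from their mean did not pass (0.79 ± 0.27, adjusted p = 0.365). Acsl3, another such synthetase, lay at 8.04, 8.04, 7.97 and 7.69 and 10.12, 8.55, 9.03 and 8.56, with treated animal 1 far above the rest, an effect of 1.13 ± 0.27 (adjusted p = 0.019) that was lost without treated animal 1 or 3 or vehicle animal 4 (adjusted p up to 0.105), and a difference of 1.07 ± 0.31 (adjusted p = 0.216). Ttc23, a tetratricopeptide repeat protein, rose by 0.96 ± 0.17 (adjusted p = 0.00277) and Hcar2, the receptor of hydroxybutyrate and niacin, by 1.15 ± 0.27 (adjusted p = 0.0188). Among the lower genes were Plpp1 (-0.72 ± 0.17, adjusted p = 0.0201), a phosphatidate phosphatase of the plasma membrane, and Smo (-0.63 ± 0.14, adjusted p = 0.0114), the signal transducer of hedgehog ligands, which without the array in doubt also passed in WSB/EiJ (-0.28, adjusted p = 0.0478). The Hcar2 call was lost without treated animal 1 or 3 or vehicle animal 3 or 4 (adjusted p up to 0.114), that of Plpp1 without treated animal 2 or 3 or vehicle animal 3 or 4 (adjusted p up to 0.105) and that of Smo without treated animal 1 (adjusted p = 0.0608).

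In the reverse case, 257 genes passed with the same sign in both MA/MyJ and NZW/LacJ and not in SM/J, 221 higher and 36 lower, and 224 of them had the same sign in SM/J. Among those with the largest rises, beside Gpnmb, Mmp12 and Lgals3, Ccnd1, cyclin D1, had effects of 2.03 and 2.66 against 0.55 ± 0.42 in SM/J (adjusted p = 0.606), Fabp5, a lipid carrier of macrophages, 2.46 and 1.82 against 0.65 ± 0.43 (adjusted p = 0.539), and Clec7a, the beta-glucan receptor, 2.62 and 1.22 against 0.58 ± 0.31 (adjusted p = 0.392, and 0.025 with the 8 SM/J arrays fitted alone). The differences of SM/J from the mean of both strains were -1.80 ± 0.51 for Ccnd1 (adjusted p = 0.0683), -1.50 ± 0.53 for Fabp5 (adjusted p = 0.162) and -1.33 ± 0.38 for Clec7a (adjusted p = 0.0673). Of the genes that fell in both strains, Ces1e, a secreted carboxylesterase, had effects of -1.15 and -1.27 against -0.87 ± 0.26 in SM/J (adjusted p = 0.0707), and Chpt1, which makes phosphatidylcholine, -0.83 and -0.80 against -0.62 ± 0.18 (adjusted p = 0.0564).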

How the data were processed

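Liver RNA of 31 mice was hybridised to 1-colour Affymetrix arrays. The authors deposited 1 log2 value per probe set and array, made with Affymetrix Power Tools and RMA per the submitters' processing notes, with versions not given in the sources used here. RMA sets all arrays to 1 distribution, so a change shared by most genes cannot be seen, and array medians lay between 6.43 and 6.54.

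Of 44721 probe sets, 34728 had 1 gene symbol, 872 several and 9121 none in the platform annotation, and 34525 symbols were updated through RefSeq (GRCm38.p6). A gene was read from its brightest probe set, by the mean of the 31 arrays. Of 18147 genes, 12890 exceeded 6.49, the median of all values, in at least 3 arrays and were tested, and 5257 were dim. limma 3.58.1 in R 4.3.3 fitted 8 means of strain and treatment to all 31 arrays (lmFit, eBayes, 23 residual degrees of freedom), with two-sided p-values adjusted by Benjamini-Hochberg over all genes tested. Interaction contrasts tested SM/J against the other strains. Precision is limited by how many arrays there are. On simulated data for the SM/J contrast, over 12890 genes, 64 of 100 changes of 0.5 and 93 of 100 of 1 were recovered, with 3 false calls. The simulated spread came from a fit without the array in doubt, which was simulated as a WSB/EiJ animal. The figures therefore do not show recovery in the fit reported, which kept that array as measured.

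Animals of the 2 groups share numbers 1 to 4. Deviations of same-numbered animals correlated at 0.231, 0.155, -0.108 and 0.0992, so the numbers were not treated as pairs. The members and gene lists were chosen with earlier results of these data known. Named genes were the 15 largest changes in each direction, the 6 with the smallest adjusted p in each, those that differed from the other strains, up to 4 calls (otherwise the 2 largest changes) of each list, fixed macrophage markers, and the largest that passed in SM/J alone or in MA/MyJ and NZW/LacJ but not SM/J. Alternatives were other filters, normalizations and weights, probe set averages, a block on the animal number, the SM/J arrays alone, and leaving out each SM/J animal or the array in doubt.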

Additional observations from a re-analysis of the deposited data

Results flagged for a closer look

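In 8 of 106 groups of 4 SM/J animals that were checked, 1 animal stood apart from the other 3 by Dixon's test, which chance does in about 1 group in 20. Treated animal 4 was apart for Ifi27l2b (9.59, lowest), Psmc4 (10.8, highest) and Erp27 (5.27, highest), and treated animal 3 for Cgrrf1 (10.7). Vehicle animal 1 was apart for Hao2 (8.98) and Cyp2c37 (11.4), vehicle animal 2 for Me1 (11.5), and vehicle animal 3 for the Kupffer cell list score (0.229).

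The drug effect of SM/J differed from the mean effect of the other 3 strains, by the interaction contrast in limma, for Cry1 (2.16), Nr1d1 (-2.32), Csrp2 (0.66), Cgrrf1 (0.39), Mcf2l (-1.38), Rpl7l1 (0.73) and Erp27 (0.84), in log2 units. Against the mean of MA/MyJ and NZW/LacJ it differed for Cry1 (2.32), Csrp2 (0.87), Cgrrf1 (0.48), Mcf2l (-1.31), Rpl7l1 (0.55), Erp27 (0.78), Gpnmb (-2.78), Mmp12 (-2.21), Psmc4 (-0.39) and Ubxn1 (-0.33). Against NZW/LacJ alone it differed for Arntl (1.75). For each of these differences the adjusted p was also under 0.05 without the array in doubt. Gpnmb, Mmp12 and Erp27 were dim in SM/J, and the Mmp12 difference was lost whichever SM/J animal was left out.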

How the results depend on the processing

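The SM/J call count of 334 (206 higher, 128 lower) became 2765 (1489 and 1276) with array weights, 600 (343 and 257) without the array in doubt, and 180 (131 and 49) with the animal number as a replicate block. With the 8 SM/J arrays alone it was 484 (268 and 216). Leaving out 1 SM/J animal gave 103 to 425 genes, 61 to 305 higher and 42 to 120 lower. The 208 differences from MA/MyJ and NZW/LacJ became 1934 with array weights, 446 without the array in doubt, 123 with probe sets averaged, 67 with the block, and 59 to 220 with 1 animal left out. The 7 differences from the other 3 strains became 889 with array weights, 149 without the array in doubt, 17 with the block, 14 with cyclic loess, 12 with a stricter filter, 4 with probe sets averaged, and 1 to 22 with 1 animal left out. The cause of these shifts was not tested. Of the named SM/J effects 4 changed sign under an alternative, and none of these passed in the fit reported or in the fits where the sign changed: Ces1d, which became 0.0037 with probe sets averaged and passed only with array weights (-0.28, adjusted p = 0.0489), and, with 1 animal left out, Krt19 (-0.053 to 0.24), Tlr13 (-0.036 to 0.17) and Vwf (-0.18 to 0.10). The median changed sign under an alternative in 11 of the 37 lists. With the block, 26 of the 143 named SM/J effects lost their call and 1 gained it, the lysosomal list had 6 calls and the proteasome list 4, and not every animal correlated best with its own number. Dim genes such as Gpnmb, Mmp12 and Erp27 lay below the level of a dim gene in SM/J. These 3 genes were tested only through arrays of other strains, which limits what their effects can show.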
